A study of Mus musculus with 6 samples.

Results

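The enzymes that place and remove methyl groups on histone lysines were examined in A316 cells, a mouse line from a primary adenocarcinoma whose cells all lack C/EBP alpha (genotype "cebp alpha knock out"). Cells given PTC-209, a small molecule described as a Bmi inhibitor, in 0.5% DMSO (n = 3 arrays) were compared with cells given 0.5% DMSO alone (n = 3 arrays). The samples' description field speaks of early embryos, against their titles, source and genotype, and the groups were taken from the titles. The members are the genes named Kdm, Kmt, Setd, Suv39h, Ehmt, Nsd or Smyd followed by a number, taken from probe sets with a single gene symbol, and the brightest probe set over the 6 arrays stood for each gene. This gave 45 of the 19937 named genes, 27 methyltransferases and other SET domain proteins and 18 demethylases. Suv39h1 has no single-symbol probe set in the annotation used and was not analysed here. The sources used here do not give the dose, the exposure time or whether each array came from its own culture, so the p-values reflect only the spread among these arrays, which may be technical. All samples come from a single line, which limits it as a model of adenocarcinoma.

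Histone lysine methylation is written by SET domain enzymes, which use S-adenosylmethionine, and erased by flavin enzymes of the LSD type and by Jumonji (JmjC) enzymes, which need iron, oxygen and 2-oxoglutarate. Methylated H3K4 marks promoters and enhancers of active genes and methylated H3K36 the bodies of transcribed genes, while H3K9 and H3K27 methylation mark silent chromatin. Bmi1 belongs to the Polycomb complex PRC1, whose canonical forms bind chromatin that carries trimethylated H3K27. Kdm6a, Kdm6b and Kdm7a can take methyl groups from H3K27, Kdm7a from its dimethylated and not its trimethylated form. The array reads the mRNA of these enzymes and not their protein, their activity or any histone mark.

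Across the arrays, median log2 values lay between 4.07 and 4.14, and array precision is limited by n = 3 per group. Bmi1 was lower on all 3 PTC-209 arrays (7.01 ± 0.075, against 7.55 ± 0.14 in DMSO, SD, n = 3 each; limma adjusted p = 0.00424), and Cebpa was dim in both groups, under the probe sets' median log2 value of 4.33, called the median brightness here. The epithelial markers Cdh1, Epcam, Krt8 and Krt18 were bright in both groups, while Muc1 was bright in DMSO and dim with PTC-209. Of 8 lung epithelial markers 5 lay below the median brightness in both groups, Nkx2-1 and Sftpc among them, and Foxa1, Foxa2 and Sftpa1 did not. Of 7 leukocyte markers 5 were dim in both groups, among them Ptprc, the general leukocyte marker, and Cd3e and Cd68 were not.

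More demethylases than methyltransferases were called higher. With PTC-209, 10 of the 18 demethylase mRNAs rose and 1, Kdm1b, fell, with a median log2 difference of 0.46, while 3 of the 27 methyltransferases and SET proteins rose and 6 fell, with a median of 0.06. All 10 that rose are JmjC enzymes, led by Kdm7a (4.0-fold), Kdm4a (3.15-fold) and Kdm6b (2.55-fold). Among the methyltransferase-type members Smyd3 rose 2.65-fold and Suv39h2 was 2.49-fold lower. Rises and falls are those with a limma p under 0.05 after adjustment over the 28192 probe sets tested. Of all genes 12.9% were called higher and 13.7% lower, and of those that reached the median brightness 21.9% and 23.5%. The difference between the 2 classes was not tested as such, and counts by class were chosen after the values were seen. The plot of log2 differences by enzyme class shows all 45 members.

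**Figure D1:**
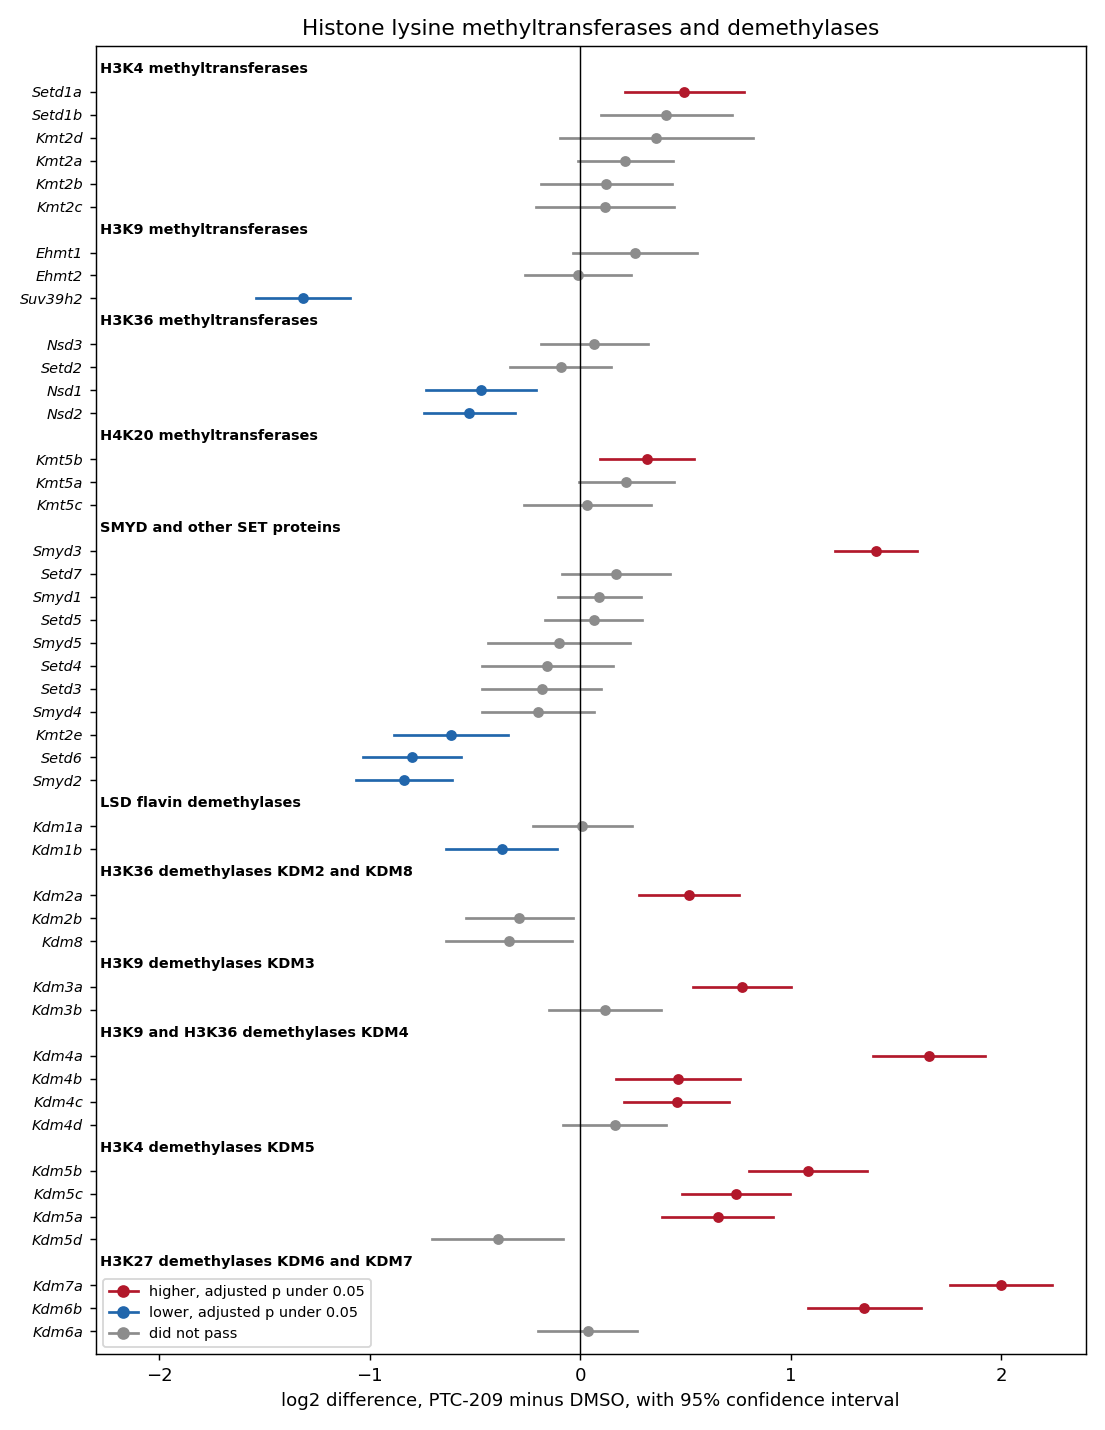
Log2 difference between PTC-209 and DMSO arrays (points, x axis) with its 95% confidence interval (bars) for the 45 members (y axis), grouped by enzyme class; red points passed as higher, blue as lower and grey did not pass at a limma adjusted p of 0.05 (n = 3 arrays per group). The red points gather in the KDM3 to KDM7 families, from Kdm4c at 0.46 to Kdm7a at 2.0, and Suv39h2 lies farthest to the left at -1.32.

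Together 13 members rose, 7 fell and 25 did not pass, so 44.4% were called, against 26.6% of all genes (12.9% higher and 13.7% lower). Their probe sets are brighter than most, and bright genes are called more often. Of the 45 members 41 reached the median brightness in at least 1 group, against 11046 of the 19937 genes, and among those 11046 genes 45.4% were called (21.9% higher and 23.5% lower). Of the 41 members that reached it 48.8% were called, near the share of those genes. Of the 17 demethylases that reached the median brightness 10 rose and 1 fell, and of the 24 such methyltransferases and SET proteins 3 rose and 6 fell. Smyd1, Smyd4, Setd4 and Kdm4d lay under the median brightness in both groups, and none of these 4 passed.

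RefSeq promoter windows, 250 bases before to 50 bases after an annotated start on GRCm38.p6, were found for 33 of the 45 members. Shown are those of the largest riser of the H3K27 group (Kdm7a), of the largest riser of the H3K9 group (Kdm4a), of Kdm3a, a known target of the hypoxia factor HIF, and of Suv39h2, the member that fell the most. Capitals mark matches to the hypoxia response element (HRE; ACGTG or GCGTG) in Kdm7a, Kdm3a and Suv39h2, to the cell cycle homology region (CHR; TTTGAA) in Suv39h2 and to the CCAAT box (CCAAT) in Kdm4a. Both strands were searched, and 2 overlapping HRE matches on opposite strands can share the letters of CACGTG.
Kdm7a (chr6:39206724-39207023, minus strand): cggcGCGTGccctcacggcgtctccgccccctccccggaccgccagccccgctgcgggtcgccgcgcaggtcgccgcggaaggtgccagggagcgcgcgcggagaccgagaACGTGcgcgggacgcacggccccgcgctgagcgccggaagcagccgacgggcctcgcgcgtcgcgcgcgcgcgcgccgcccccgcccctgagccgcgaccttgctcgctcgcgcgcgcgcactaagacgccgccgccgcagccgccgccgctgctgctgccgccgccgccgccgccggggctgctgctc
Kdm4a (chr4:118179994-118180293, minus strand): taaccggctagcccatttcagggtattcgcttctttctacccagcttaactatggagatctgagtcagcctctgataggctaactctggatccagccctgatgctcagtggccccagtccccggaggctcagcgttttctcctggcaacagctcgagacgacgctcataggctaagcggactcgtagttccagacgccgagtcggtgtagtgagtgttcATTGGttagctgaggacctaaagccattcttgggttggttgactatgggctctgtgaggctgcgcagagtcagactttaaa
Kdm3a (chr6:71632868-71633167, minus strand; 1 of 3 windows): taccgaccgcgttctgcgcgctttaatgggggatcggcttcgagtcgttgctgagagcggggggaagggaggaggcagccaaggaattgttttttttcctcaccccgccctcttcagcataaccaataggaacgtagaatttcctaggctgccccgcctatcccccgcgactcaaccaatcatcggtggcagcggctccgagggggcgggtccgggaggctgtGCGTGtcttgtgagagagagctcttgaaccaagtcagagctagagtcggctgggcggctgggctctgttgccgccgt
Suv39h2 (chr2:3474937-3475236, minus strand): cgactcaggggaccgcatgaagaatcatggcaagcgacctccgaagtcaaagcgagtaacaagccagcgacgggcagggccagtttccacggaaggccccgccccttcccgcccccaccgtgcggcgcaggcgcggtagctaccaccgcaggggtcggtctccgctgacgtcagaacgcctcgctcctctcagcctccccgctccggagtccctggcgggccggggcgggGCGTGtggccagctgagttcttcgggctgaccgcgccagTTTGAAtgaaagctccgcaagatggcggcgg

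The Kdm7a window is 82.7% G and C with 65 CpG pairs and holds HRE letters that begin 246 and 139 bases before the start. The Kdm4a window is 53.3% G and C with 13 CpG pairs, and its CCAAT match lies 31 bases before the start. In Kdm3a the HRE letters begin 27 bases before the start, and the other 2 windows of Kdm3a hold none. The printed Kdm3a window also holds 2 CCAAT matches, left in lower case. In Suv39h2 the HRE letters begin 20 bases before the start and the CHR letters 19 bases after it. HRE letters occur in 5 of the 8 members that rose and have a window, in 4 of the 4 that fell and in 16 of the 21 that did not pass, against 46.7% of 27025 genes with a window. CHR letters occur in 0 of 8, 3 of 4 (Suv39h2, Setd6 and Kdm1b) and 2 of 21, against 20.2% of genes, and CCAAT in 3 of 8, 0 of 4 and 11 of 21, against 41.1%. An E2F site (TTTCCCGC, TTTCGCGC, TTTGCCGC or TTTGGCGC) was present in 1 member, Kmt5c, which did not pass, against 2.60% of genes, and the C/EBP-ATF element (TTGCATCA) in 0 members, against 1.03%. A gene was counted when any of its windows held the letters. The shares of all genes were not matched to the members for number of windows or CpG content, and both HRE strings hold a CpG pair. These matches describe the letters of the windows and are not binding sites.

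Of the demethylases of H3K27, Kdm7a and Kdm6b rose and Kdm6a did not pass. Kdm7a, which removes H3K9 and H3K27 dimethylation, had log2 values of 7.94, 7.72 and 7.63 on the PTC-209 arrays, against 5.77, 5.70 and 5.82 on the DMSO arrays. No PTC-209 array came near a DMSO array, and the difference of 2.0 (SE 0.108, 95% interval 1.76 to 2.24, limma adjusted p = 1.66e-06) was the 47th highest of the 19937 genes. Its second probe set gave a difference of 1.83 (SE 0.0924, limma adjusted p = 1.16e-06). Kdm6b, an inducible H3K27 demethylase, had 6.49, 6.56 and 6.32 with PTC-209, against 5.30, 4.94 and 5.08 in DMSO. It was more than 1 log2 unit higher on every PTC-209 array than on the highest DMSO array, at 2.55-fold (95% interval 2.12 to 3.07, limma adjusted p = 3.41e-05). Kdm6a, the X-linked paralogue, had 6.09, 6.19 and 5.91 with PTC-209, against 6.09, 5.97 and 6.02 in DMSO. Its groups overlapped, with a difference of 0.04 and a 95% interval of -0.20 to 0.27. Non-overlap of the 3 and 3 arrays occurred for 40.5% of all genes. It was more common among the 11046 genes that reached the median brightness, with 3396 higher and 3374 lower with PTC-209. Among the 45 members 17 were higher and 9 lower in this way.

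The KDM4 enzymes remove trimethylation from H3K9, and those other than Kdm4d also from H3K36. Of them Kdm4a, Kdm4b and Kdm4c rose and Kdm4d did not pass. Kdm4a had 7.47, 7.41 and 7.23 on the PTC-209 arrays, against 5.89, 5.55 and 5.70 on the DMSO arrays. The groups were far apart, at 3.15-fold (95% interval 2.62 to 3.79, limma adjusted p = 8.33e-06), the 78th highest difference of all genes. Kdm4b averaged 4.99 ± 0.14 with PTC-209 and 4.53 ± 0.22 in DMSO (SD, n = 3 each; difference 0.46, limma adjusted p = 0.0287). Kdm4c averaged 7.28 ± 0.099 with PTC-209 and 6.82 ± 0.16 in DMSO (difference 0.46, limma adjusted p = 0.0139). Both smaller calls depended on single arrays. Kdm4b no longer passed without PTC-209 replicate 1 (adjusted p = 0.0607) or 3 (0.104) or DMSO replicate 2 (0.0772) or 3 (0.102), and Kdm4c without PTC-209 replicate 1 (0.0546) or DMSO replicate 2 (0.0563) or 3 (0.055). Kdm4d, which in mouse is found mainly in testis, was dim at 3.28 ± 0.11 with PTC-209 and 3.11 ± 0.13 in DMSO.

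The KDM5 enzymes remove H3K4 methylation, and the 3 that are not Y-linked rose. Kdm5b had 8.18, 7.82 and 7.84 with PTC-209, against 6.93, 6.73 and 6.94 in DMSO. Every PTC-209 array lay well above every DMSO array (2.12-fold, 95% interval 1.74 to 2.57, limma adjusted p = 0.000172). Kdm5c, on the X chromosome, had 6.53, 6.55 and 6.24 with PTC-209, against 5.80, 5.63 and 5.68 in DMSO. The groups were separate, at 1.67-fold (95% interval 1.40 to 1.99, limma adjusted p = 0.00102). Kdm5a, which binds the retinoblastoma protein, had 8.42, 8.20 and 8.18 with PTC-209, against 7.79, 7.50 and 7.55 in DMSO. It was 1.57-fold higher without overlap (95% interval 1.31 to 1.89, limma adjusted p = 0.00256). Kdm5d, the Y-linked paralogue, had 5.49, 5.40 and 5.41 with PTC-209, against 6.06, 5.90 and 5.51 in DMSO, and did not pass (difference -0.39, limma adjusted p = 0.0743). DMSO replicate 3 lay close to the PTC-209 arrays, and without it the difference was -0.55 with an adjusted p of 0.00907, so that Kdm5d then passed as lower. Whether Kdm5d differs from its paralogues in its response was not tested.

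Of the remaining JmjC enzymes Kdm3a and Kdm2a rose and Kdm3b, Kdm2b and Kdm8 did not pass. Kdm3a, which removes mono- and dimethylation of H3K9, had 7.70, 7.62 and 7.52 with PTC-209, against 6.98, 6.81 and 6.74 in DMSO. All 3 PTC-209 arrays were higher, at 1.70-fold (95% interval 1.45 to 2.0, limma adjusted p = 0.000467). Its paralogue Kdm3b averaged 8.23 ± 0.11 with PTC-209 and 8.12 ± 0.18 in DMSO, with overlapping arrays. Kdm2a, an H3K36 demethylase that binds unmethylated CpG islands, had 7.51, 7.39 and 7.26 with PTC-209, against 6.98, 6.79 and 6.84 in DMSO. It was 1.43-fold higher without overlap (95% interval 1.21 to 1.69, limma adjusted p = 0.00571). Kdm2b, which recruits a variant PRC1 complex to CpG islands, had 5.04, 5.18 and 4.87 with PTC-209, against 5.44, 5.23 and 5.28 in DMSO. Each PTC-209 array lay below each DMSO array, yet the difference of -0.29 did not pass (95% interval -0.54 to -0.04, limma adjusted p = 0.102). Kdm8, a JmjC protein whose substrate is debated, had a difference of -0.34 (95% interval -0.64 to -0.04, limma adjusted p = 0.104).

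The 2 flavin demethylases act on mono- and dimethylated H3K4. Kdm1a, LSD1, had nearly the same level in both groups, at 8.83 ± 0.095 with PTC-209 and 8.82 ± 0.12 in DMSO (difference 0.01, 95% interval -0.22 to 0.25). Kdm1b, LSD2, was lower, at 5.29 ± 0.15 with PTC-209 and 5.67 ± 0.14 in DMSO (difference -0.37, limma adjusted p = 0.0448). The Kdm1b call ended without PTC-209 replicate 2 (adjusted p = 0.135) or 3 (0.147) or DMSO replicate 1 (0.116) or 2 (0.114), as it did after repeated quantile normalization (0.0563) or median centring (0.062). Without those arrays no demethylase was called lower, and without DMSO replicate 3 there were 2, Kdm1b and Kdm5d.

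**Figure D2:**
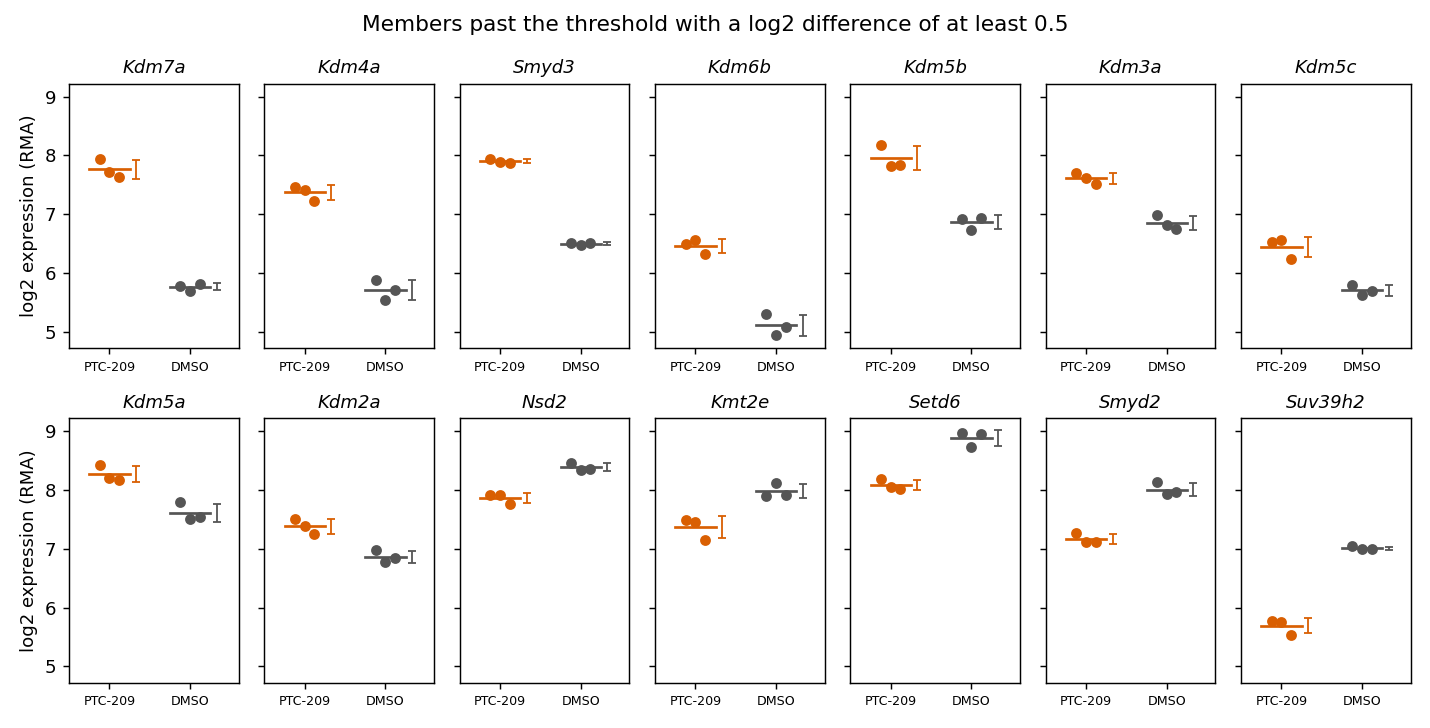
Log2 expression (y axis, RMA values) on each of 3 PTC-209 arrays (orange, left) and 3 DMSO arrays (grey, right) for the 14 members past the threshold with a log2 difference of at least 0.5, ordered from Kdm7a, the highest, to Suv39h2, the lowest; horizontal lines are group means and error bars the SD. In each panel the 2 groups do not overlap, and the gap is widest for Kdm7a (7.63 to 7.94 against 5.70 to 5.82).

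Among the H3K9 methyltransferases Suv39h2, which trimethylates H3K9 in heterochromatin, fell the most of all members. It had 5.77, 5.76 and 5.54 with PTC-209, against 7.04, 6.99 and 6.99 in DMSO. The groups were more than 1 log2 unit apart at their nearest arrays (difference -1.32, SE 0.0995, 95% interval -1.54 to -1.09, limma adjusted p = 1.21e-05). Ehmt1 and Ehmt2, the GLP and G9a subunits of the main euchromatic H3K9 dimethylase, did not pass. Ehmt1 differed by 0.26 (95% interval -0.03 to 0.56) and Ehmt2 by -0.01 (95% interval -0.26 to 0.24).

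Of the H3K36 methyltransferases Nsd1 and Nsd2 fell, and Nsd3 and Setd2 did not pass. Nsd2, a dimethylase, had 7.92, 7.91 and 7.76 with PTC-209, against 8.46, 8.34 and 8.37 in DMSO. It was 1.44-fold lower without overlap (95% interval 1.24 to 1.67, limma adjusted p = 0.00281). Nsd1 averaged 6.05 ± 0.16 with PTC-209 and 6.52 ± 0.13 in DMSO (difference -0.47, limma adjusted p = 0.0157), and its call ended without PTC-209 replicate 3 (difference -0.38, adjusted p = 0.0588). Setd2, the main H3K36 trimethylase, differed by -0.09 (95% interval -0.33 to 0.15) and by -0.08 on its second probe set. Nsd3 differed by 0.07 (95% interval -0.18 to 0.32).

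Of the 6 H3K4 methyltransferases of the COMPASS and MLL type only Setd1a passed, and all 6 differences were positive, from 0.12 to 0.50. Positive differences were found for 10959 of all 19937 genes, and the shared sign of these 6 was not tested. Setd1a, a catalytic subunit of the COMPASS complex, averaged 6.52 ± 0.20 with PTC-209 and 6.02 ± 0.14 in DMSO (1.41-fold, limma adjusted p = 0.0177). It no longer passed without PTC-209 replicate 2 (adjusted p = 0.0688) or DMSO replicate 2 (0.0653) or 3 (0.0619). Its paralogue Setd1b had 6.03, 6.03 and 5.54 with PTC-209, against 5.48, 5.43 and 5.46 in DMSO, and narrowly missed the threshold (difference 0.41, limma adjusted p = 0.0621). PTC-209 replicate 3 lay close to the DMSO arrays, and without it Setd1b passed (difference 0.57, adjusted p = 0.00471). The second Setd1b probe set differed by 0.12. Kmt2d, an enhancer H3K4 monomethylase, had 6.79, 6.86 and 6.60 with PTC-209, against 5.85, 6.64 and 6.68 in DMSO. The low value of DMSO replicate 1 set most of its difference of 0.36 (limma adjusted p = 0.265), which was 0.09 without that array. On a second probe set Kmt2d had 6.58, 6.60 and 6.22 with PTC-209, against 5.86, 5.83 and 5.80 in DMSO, a difference of 0.64 that passed (limma adjusted p = 0.00334), so the 2 probe sets disagree on the call. Kmt2a, Kmt2b and Kmt2c differed by 0.21, 0.12 and 0.12.

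The H4K20 enzymes moved little. Kmt5b, which makes di- and trimethylated H4K20, was 1.25-fold higher at 6.66 ± 0.10 with PTC-209 and 6.34 ± 0.077 in DMSO (limma adjusted p = 0.0439). Its call held without DMSO replicate 1 and ended without any other array (adjusted p = 0.141, 0.103 and 0.0535 without PTC-209 replicate 1, 2 and 3, and 0.129 and 0.126 without DMSO replicate 2 and 3). Kmt5a, the H4K20 monomethylase, which is regulated through the cell cycle, had 9.04, 8.98 and 8.92 with PTC-209, against 8.90, 8.72 and 8.66 in DMSO. The PTC-209 arrays all lay above the DMSO arrays by a small margin, and the difference of 0.22 did not pass (95% interval -0.01 to 0.45, limma adjusted p = 0.163). Kmt5c differed by 0.03 (95% interval -0.27 to 0.34).

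The SMYD and remaining SET proteins, several of which methylate proteins other than histones, held both large rises and large falls. Smyd3, a cytoplasmic and nuclear methyltransferase of MAP3K2 and of histones, had 7.94, 7.89 and 7.88 with PTC-209, against 6.51, 6.47 and 6.51 in DMSO. The arrays within a group were almost equal and the groups 2.65-fold apart (95% interval 2.31 to 3.03, limma adjusted p = 3.64e-06), the 144th highest difference of all genes. Smyd2, which methylates p53 among other proteins, had 7.28, 7.12 and 7.11 with PTC-209, against 8.13, 7.93 and 7.96 in DMSO. It was 1.79-fold lower without overlap (95% interval 1.53 to 2.09, limma adjusted p = 0.000235). Setd6, which methylates the NF-kB subunit RelA, had 8.19, 8.06 and 8.02 with PTC-209, against 8.97, 8.74 and 8.95 in DMSO. It was 1.74-fold lower (95% interval 1.48 to 2.04, limma adjusted p = 0.000379), again without overlap.

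Kmt2e, a SET protein without clear methyltransferase activity, had 7.50, 7.45 and 7.15 with PTC-209, against 7.90, 8.12 and 7.92 in DMSO. It was 1.53-fold lower (95% interval 1.27 to 1.84, limma adjusted p = 0.00436), the opposite sign to the 6 H3K4 enzymes above. Setd3, which methylates a histidine of actin, had 7.67, 7.55 and 7.30 with PTC-209, against 7.61, 7.61 and 7.86 in DMSO, and a second probe set had 7.15, 6.93 and 6.93 with PTC-209, against 6.96, 6.75 and 6.69 in DMSO. The groups overlapped on both, with differences of opposite sign (-0.18 and 0.20), so no direction can be given. Setd5 and Setd7 differed by 0.06 and 0.17, and Smyd5 by -0.10. The dim members Smyd1, Smyd4 and Setd4 differed by 0.09, -0.20 and -0.16.

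Within each group the same arrays tended to be high or low across the members. PTC-209 replicate 3 was the lowest of its group for 36 of the 45 members (80%), against 40.3% of the 11046 genes that reached the median brightness, and its members' median lay 0.13 log2 units below the group mean (median deviation -0.13, against -0.02 for those genes). DMSO replicate 1 was the highest of its group for 36 of the 45 members (80%), against 55.9% of those genes (median deviation 0.11, against 0.06). DMSO replicate 2 was the lowest for 66.7% of members, against 36.1% of those genes (median deviation -0.07, against -0.02). PTC-209 replicate 1 was the highest for 62.2%, against 47.8% (median deviation 0.09, against 0.04), so replicate 1 lay high in both groups. The members thus deviated together on these arrays, by more than the median of those genes, and are not independent readings of the comparison. The part of these deviations in the differences between groups was not tested. Leaving out PTC-209 replicate 3 gave 12 members higher and 5 lower, and leaving out DMSO replicate 1 gave 13 higher and 6 lower.

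**Figure D3:**
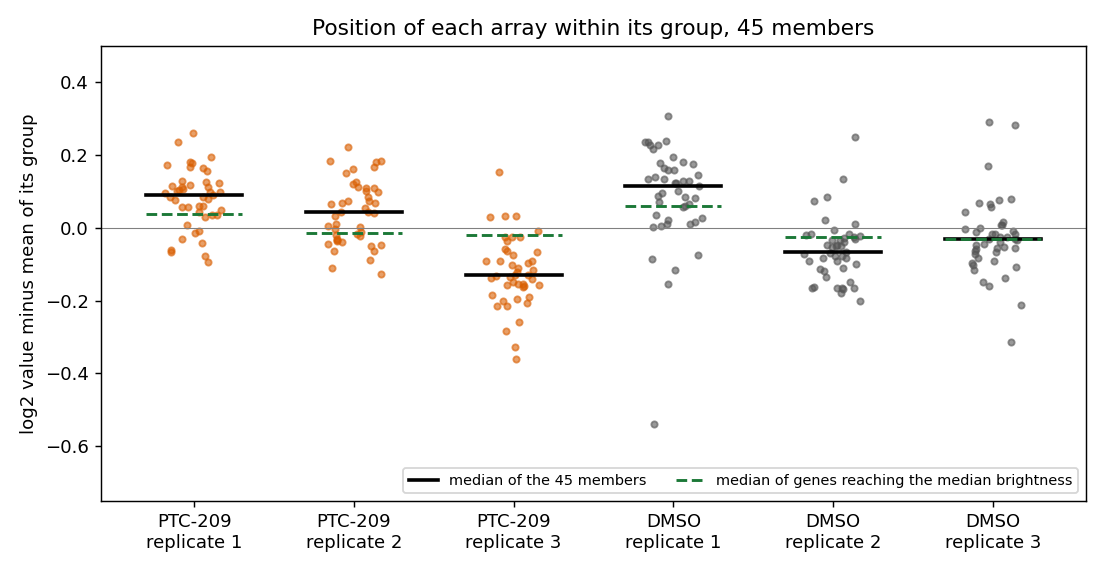
Log2 value of each of the 45 members (points) minus the mean of its own group (y axis) on the 3 PTC-209 arrays (orange) and the 3 DMSO arrays (grey); black lines are members' medians and green dashed lines the medians of the 11046 genes that reached the median brightness. PTC-209 replicate 3 sits low (median -0.13) and DMSO replicate 1 high (median 0.11), each farther from 0 than the other genes' median.

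Genes outside the naming rule that act in the same reactions were measured on the same arrays. There 26.6% of all genes were called, and 45.4% of those that reached the median brightness. Of 13 other JmjC proteins 4 rose and 0 fell: Jmjd1c, the third KDM3 paralogue (difference 0.93), the HIF asparagine hydroxylase Hif1an (0.66), the H3K9 demethylase Phf8 (0.57) and the ribosomal oxygenase Riox2 (0.43). The number of rises was 8 without DMSO replicate 1, 7 with dim probe sets left out, repeated quantile normalization or array weights, and 1 at a minimum fold of 1.2. Of 10 other lysine methyltransferases 3 rose, Ezh1 (1.33), the H3K79 enzyme Dot1l (0.81) and Prdm9 (0.50), and 2 fell, Setdb2 (-0.70) and Mecom (-0.50). Hif1an and Prdm9 were dim in DMSO, with means of 4.31 and 4.30 under the median brightness, against 4.96 and 4.80 with PTC-209. Ezh2, the H3K27 methyltransferase of cycling cells, did not pass, at 9.52 ± 0.09 with PTC-209 and 9.65 ± 0.051 in DMSO.

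Partners of the members did not move in a single direction. All of those measured reached the median brightness in at least 1 group, and 45.4% of all such genes were called. The share called was 69.2% of COMPASS and MLL subunits and 33.3% of the LSD1 complex. It was 50% of the H3K9 readers and partners and 50% of the supply genes, near the share of such genes. Of 13 COMPASS and MLL subunits 4 rose, Cxxc1 (0.59), Wdr5 (0.57), Wdr82 (0.45) and Hcfc1 (0.44), and 5 fell, with Psip1 (-1.05), Paxip1 (-0.95), Dpy30 (-0.62) and Pagr1a (-0.62) the largest. Without PTC-209 replicate 2 or DMSO replicate 2 the rises numbered 2. Of 9 measured partners in the LSD1 complex the scaffold Rcor1 (0.92) and the H3K4 reader Phf21a (0.83) rose and the deacetylase Hdac1 fell (-1.29). The other 6 did not pass, and neither did Kdm1a itself. Without DMSO replicate 1 there were 2 falls in that complex. Among 10 readers and partners of H3K9 methylation 3 fell, the HP1 proteins Cbx5 (-2.01) and Cbx3 (-0.62) and the replication-linked Uhrf1 (-1.72), and 2 rose, Cdyl (0.63) and Zfp644 (0.34). Cdyl was dim in DMSO, with a mean of 4.28 under the median brightness, against 4.92 with PTC-209. Only 1 rise was left when a PTC-209 array (1, 2 or 3) or DMSO array 2 or 3 was dropped. Of 6 measured genes for methyl donor and 2-oxoglutarate supply, Idh1 (-0.48) and Idh2 (-0.45), which make 2-oxoglutarate, fell and Mat2b, a regulatory subunit of methionine adenosyltransferase, rose (0.58).

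Proliferation and hypoxia response genes also moved between the same arrays, where 45.4% of the genes that reached the median brightness were called. All 13 measured proliferation genes fell, led by Ccnb2 (-3.30), Rrm2 (-3.23), Mki67 (-2.65) and Top2a (-2.62), with a median log2 difference of -2.09, and their summed level on the linear scale was 4608 to 5217 over the PTC-209 arrays, against 11264 to 11911 over the DMSO arrays. The 7 members that fell on those arrays were Suv39h2 (-1.32), Smyd2 (-0.84), Setd6 (-0.80), Kmt2e (-0.61), Nsd2 (-0.53), Nsd1 (-0.47) and Kdm1b (-0.37). Another 13 members rose and 25 did not pass. Of 12 hypoxia response genes 6 rose and 0 fell, among them Ndrg1 (2.92), Vegfa (1.94), Slc2a1 (1.90) and Ero1a (1.54), with a summed level of 9712 to 10662 over the PTC-209 arrays, against 6361 to 7062 over the DMSO arrays. The number of falls was 1 with a trended and robust prior, dim probe sets left out, repeated quantile normalization or cyclic loess. The other 6 did not pass, and all of their differences were negative. They were Car9 (-0.27), Ldha (-0.26), Ankrd37 (-0.18), Egln3 (-0.09), Egln1 (-0.03) and Pdk1 (-0.03). Kdm3a, Kdm4b and Kdm4c, which are known HIF targets, rose, but the calls of Kdm4b and Kdm4c ended without single arrays. The part of either programme in the members' differences was not tested.

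**Figure D4:**
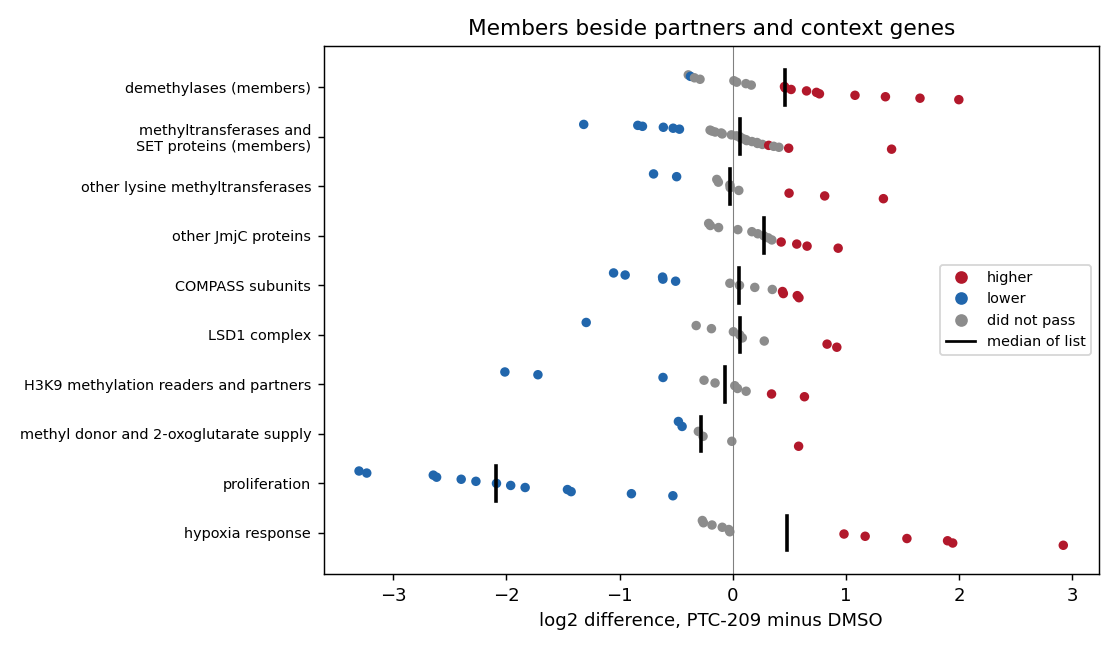
Log2 difference between PTC-209 and DMSO arrays (x axis) for single genes (points) of the 2 member classes and of 8 lists of partners and context genes (y axis); red passed as higher, blue as lower and grey did not pass (limma adjusted p of 0.05), and black lines are medians. The demethylases' median lies at 0.46, the methyltransferases' at 0.06 and that of the proliferation genes at -2.09.

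Markers of other cell types were set beside these results. Calls were made for 26.6% of all genes and 45.4% of those that reached the median brightness. Of 8 epithelial markers 5 fell, led by Muc1 (-4.33), Krt7 (-1.51), Krt18 (-1.04) and Krt19 (-0.99), and 2 rose, Cldn4 (0.66) and Cdh1 (0.35), with a summed level of 5102 to 5818 over the PTC-209 arrays, against 9188 to 10193 over the DMSO arrays. Muc1 was dim with PTC-209, with a mean of 3.55 under the median brightness, against 7.87 in DMSO. Only 1 epithelial rise was left on dropping any array but DMSO replicate 1, or after repeated quantile normalization, cyclic loess or median centring. Of 7 leukocyte markers 1 rose, Cd68 (2.61), which also marks lysosomes, and it carried the list's sum (1081 to 1143 over the PTC-209 arrays, against 229 to 240 over the DMSO arrays). Of these 7 markers 5 lay below the median brightness in both groups, Ptprc, Itgam and Csf1r among them. Besides Cd68, Cd3e lay slightly above it in both, at 4.53 with PTC-209 and 4.38 in DMSO, and did not pass. Of 8 markers of endothelium and fibroblasts 1 fell, Cdh5 (-1.33), which carried the list's sums of 379 to 463 over the PTC-209 arrays, against 823 to 857 over the DMSO arrays, and the differences of the other 7 were positive and did not pass. Of these 8 Pecam1, Kdr and Dcn were dim in both groups, and 1 marker passed as higher without PTC-209 replicate 3 or DMSO replicate 2. None of the 8 lung epithelial markers passed in limma, and 1 passed as higher without DMSO replicate 3. In these bulk samples fewer cells that make a transcript and less of it per cell cannot be told apart.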

How the data were processed

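Expression was measured on 6 Affymetrix arrays of biotin-labelled cRNA. The deposited log2 values were made by the authors with RMA, per the submitters' processing notes, software version not given in the sources used here. Because RMA equalises the arrays' distributions, it hides a shift common to most genes. That the scale is log2 was inferred from the values' range. A run of 6568 array control probe sets without a listed gene was left out of the 34760 deposited. The platform annotation gives 1 gene symbol to 21640 of the 28192 tested, several to 1321 and lists none for 5231.

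Treatment was the only term in limma 3.58.1 (R 4.3.3; lmFit, eBayes; residual degrees of freedom 4, prior 5.27), with Benjamini-Hochberg adjustment over all 28192 probe sets and a threshold of 0.05. Across probe sets, arrays of the same group correlated at 0.992 to 0.996, those of different groups at 0.970 to 0.974. The fit was tested on simulated data. Members, role lists and context lists were chosen with earlier results of these data known, and counts by the 2 enzyme classes and by JmjC enzymes after their values were seen. Every member is named; values on every array are given where the difference passed and reached 0.5, where probe sets disagreed, and for some others chosen after their values were seen; in each context list up to 4 genes per direction are named, largest first, beside a few others chosen after their values were seen. The 16 alternatives covered the prior, a filter on dim probe sets, normalization, array weights, the replicate number, a minimum fold of 1.2, probe set averaging, the control block and each array left out. Promoter letters came from RefSeq (GRCm38.p6). Figures were drawn with matplotlib 3.10.9.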

Additional observations from a re-analysis of the deposited data

How the results depend on the processing

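Across 716 refits of single members under the 16 alternatives, 653 kept their direction and side of the threshold, 35 lost a call, 11 gained one and 17 changed sign, all 17 of members that passed in neither fit. With 1 array left out, Ehmt2 (-0.01 as reported) ranged from -0.0703 to 0.0713, Kdm1a (0.01) from -0.0389 to 0.0802, Kmt5c (0.03) from -0.0488 to 0.175, Kdm6a (0.04) from -0.0269 to 0.112, Setd2 (-0.09) from -0.151 to 0.0033 and Smyd5 (-0.10) from -0.193 to 0.0789. Ehmt2 was 0.0478 after repeated quantile normalization and 0.0418 with array weights, Kdm1a -0.0328 after repeated quantile normalization and -0.065 with cyclic loess, Setd5 (0.06) -0.0062 with cyclic loess and Setd3 (-0.18) 0.0084 with probe sets averaged. Kdm7a, Kdm4a, Kdm6b, Kdm5b, Kdm5c, Kdm5a, Kdm3a and Smyd3 as higher and Suv39h2, Smyd2 and Setd6 as lower passed under all 16. The strictest was a minimum fold of 1.2, with 8 members higher and 3 lower (13 and 7 as reported), 7 and 0 among demethylases (10 and 1), 1 and 3 among methyltransferases and SET proteins (3 and 6), and 1270 genes higher and 1610 lower (2565 and 2741). The 1 demethylase called lower became 2 when dim probe sets were left out, with cyclic loess, with the replicate block or with probe sets averaged, and 0 after repeated quantile normalization, median centring or keeping the control block. Leaving out 1 array at a time gave 9 to 13 members higher and 5 to 8 lower, 8 to 10 demethylases higher and 0 to 2 lower, 1 to 3 methyltransferases and SET proteins higher and 5 to 6 lower, and 2068 to 2647 genes higher and 2264 to 2484 lower. With the replicate number as a block, 14 members were higher and 8 lower. Same-numbered arrays deviated together for number 1 (r = 0.231 across probe sets) but less for 2 (0.0703) and 3 (0.0733), so the numbers were not taken as pairs. With 3 arrays per group, single arrays ended or made calls at differences from 0.32 (Kmt5b) to 0.50 (Setd1a) in size, and of the 4 members below the median brightness in both groups 0 passed.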
